A study of Mus musculus with 4 samples.

Results

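Liver RNA of a diabetic male mouse group was set against liver RNA of a control male mouse group, each measured on 1 array. The pair is 2 of the 4 arrays of the study, and it was chosen by the group labels. The control array carries the label of natural aging with no drug, and the diabetic array the label of a type 2 diabetes model in aging mice, also with no drug. The titles of both add 60 d without saying what it counts from. The other 2 arrays hold diabetic mice given metformin, alone or with astragalus polysaccharide, and were not compared here. Total RNA of whole liver was copied into Cy5-labelled cRNA and hybridized to an Agilent mouse 1-colour array, on which a probe's brightness follows the amount of its RNA. No source used here gives the strain, the age, how the diabetes was made, the feeding state, the hour of collection, or whether RNA of several mice was pooled.

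The liver keeps blood glucose level by making, storing and releasing it, turns surplus sugar into fatty acids, burns fatty acids in fasting, makes bile acids from cholesterol, and secretes most plasma proteins. Insulin favours glycolysis and lipid synthesis in this tissue and restrains glucose output. In male mice, pulses of growth hormone acting through the receptor Ghr, the kinase JAK2 and the transcription factor STAT5b maintain a sex-specific set of P450 and transporter genes, so that a male and a female mouse liver differ in many metabolic genes.

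Because each side is 1 array, no test can be made and no p-value is given, and the number of arrays limits the precision of every value. A level is given as the log2 signal over the array's 75th percentile, so a level of 0 is that percentile. A difference is the diabetic level minus the control level in log2, and 1 is a 2-fold difference. Levels were not read as the amount of RNA of a gene against that of another gene. Across genes they were used to sort genes by brightness and to sum the signal of a list. The brightest members weigh most in such a sum. Repeated spots of the same probe gave a technical SD of 0.10 for a difference, which leaves out the spread between mice, RNA preparations and hybridizations. Array and group cannot be told apart.

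Both arrays read as liver. Albumin (Alb), the main secreted protein of hepatocytes, stood at 5.26 on the control and 5.08 on the diabetic array, and transthyretin (Ttr) at 4.98 and 4.42. Of 14 measured hepatocyte identity genes 1 was at least 2-fold higher and 0 lower, against 5.88% and 5.83% of all genes. Among the others, the vitamin D carrier Gc differed by -0.53, the fetuin gene Ahsg by -0.41 and the transferrin gene Trf by -0.23. Of the Y-linked genes, Eif2s3y was measured at 2.79 and 2.23 and Uty at -3.06 and -2.87, Ddx3y had outlier spots, Kdm5d was not well above background, and neither was the female transcript Xist. The markers of both arrays match male liver as labelled. Exocrine pancreas genes, which liver does not make in quantity, were bright on the control array, with a summed log2 signal of 8.04 against 4.79 on the diabetic array.

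In the diabetic liver 793 (5.88%) of 13475 genes measured above background on both arrays reached 2-fold higher and 786 (5.83%) reached 2-fold lower, 11.7% in either direction. By probes the counts were 1525 of 26416 higher (5.77%) and 1620 lower (6.13%), 11.9% in either direction. Among these were 8231 probes that have no gene name here, of which 464 were higher and 540 lower. At a 4-fold limit 133 genes were higher and 146 lower, at 8-fold 28 and 46, and at 16-fold 9 and 20, so the largest differences were more often on the lower side. Of the genes past 2-fold, 50.2% were higher, and this split depends on the scale. It was 63.3% when each array's percentile was taken over its own unflagged spots, 62.2% with the median of all genes set to 0, and 72.9% when 11 spike-in probes set the scale. A direction close to 0 therefore has little meaning, and list medians are read against the median of all genes, which was -0.12. Counts of list members above or below 0 hold for the scale used here, on which 39.6% of all genes lay above 0.

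Differences also depended on brightness. Genes were split by mean level into 10 bins of equal size. In the brightest bin the median was -0.31 with an SD of 0.22, with 0 genes past 2-fold on the higher side and 11 on the lower, while the dimmer 9 bins had medians between -0.15 and -0.01. Bright liver genes thus sat slightly lower on the diabetic array as a class. Differences were therefore also set against genes of like brightness, a choice made after seeing the data, which gives a list its brightness-centred median. Among genes close to 2-fold, this centring took Srebf1, Sqle, Pkm, Mup21, Slc39a14, Ccl5, Rian and Cela1 under that limit, among others. Sparc, Ngp, Sult2a8, Slc7a1, Slc17a3, Cyp7b1 and Nudt7 also fell under it. Hjv, Ddit3, Aen and Hsd17b13 were among those that it took over the limit. Alb itself was -0.17 before and 0.19 after this centring, which means no direction can be given for it.

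**Figure D1:**
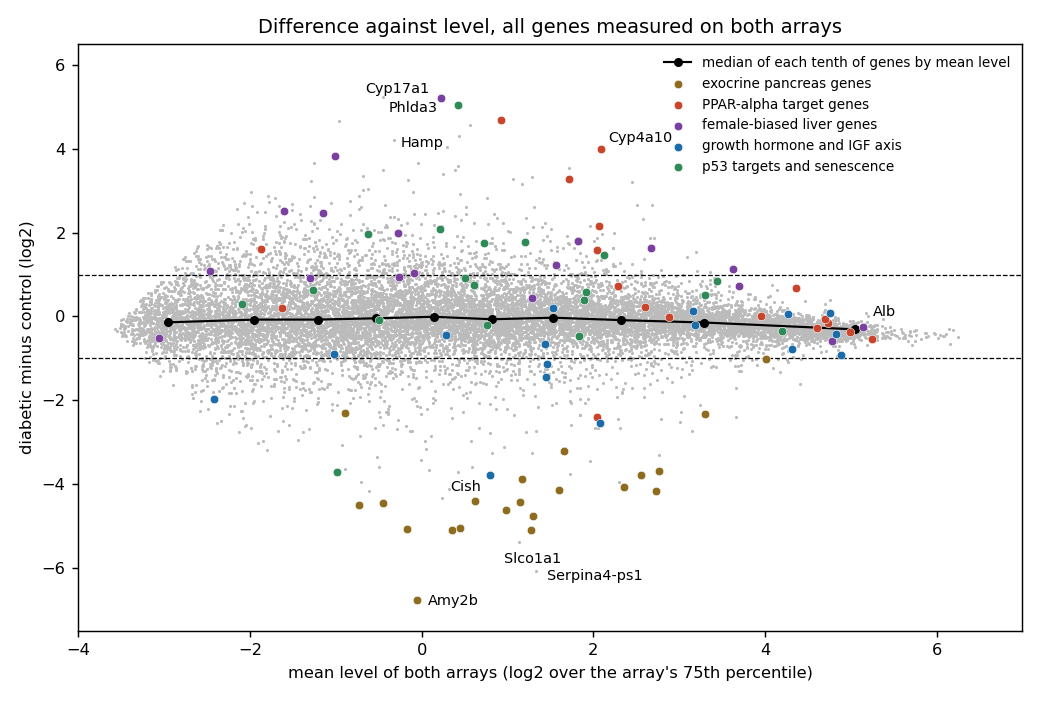
Each grey point is 1 of 13475 genes, with its mean log2 level on the x axis and its diabetic minus control difference in log2 on the y axis; coloured points are members of 5 gene lists, the black line is the median of each of 10 equal bins of genes by level, and dashed lines mark 2-fold. The exocrine pancreas genes lie lowest, with a median of -4.40, female-biased liver genes lie mostly above 0 with a median of 1.11, and the black line bends down to -0.31 at the bright end.

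A difference seen by more than 1 probe rests less on any single probe. Of 3916 genes with 2 or more measured probes, 80 had every probe at least 2-fold higher and 90 every probe at least 2-fold lower. Probes of the same gene differed by a median SD of 0.19, and in 3 genes they pointed 2-fold in opposite directions. Slco1a1, an organic anion uptake carrier of male mouse liver, had levels of 4.06 and 3.58 on its probes in the control and -1.76 and -1.35 in the diabetic liver, 41.5-fold lower by their mean. Slc10a2, the sodium-dependent bile acid transporter known best from ileum and bile duct cells, went from 3.49 and 3.88 in the control to -0.36 and 0.82 in the diabetic liver, a difference of -3.45. Every probe of both carriers was more than 8-fold lower in the diabetic liver, and 1 probe of Slc10a2 still read above the array's 75th percentile there.

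Egfr, the receptor of epidermal growth factor and a gene more active in male than female mouse liver, was lower on all 3 probes, by -3.51, -1.98 and -1.37. Rgs3, a regulator of G-protein signalling, differed by -3.01 and -2.68, and Serpina9, of the serpin protease inhibitor family, by -3.80 and -3.49. B4galnt1, a ganglioside-synthesis enzyme, was lower on both probes but by unequal amounts, -5.16 and -2.04. The poliovirus receptor gene Pvr (-2.22), the acid-sensing ion channel gene Asic5 (-2.72), the sulfotransferase Sult5a1 (-2.40), Serpina3f (-2.35), the glutamate receptor Grm8 (-2.09) and the medium-chain acyl-CoA synthetase Acsm2 (-2.08) complete the 12 lowest of this kind.

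On the higher side Cyp4a10, a fatty acid omega-hydroxylase, was at 0.44 and -0.25 in the control and 4.18 and 3.99 in the diabetic liver, 15.8-fold higher. Its neighbour Cyp4a31 was higher by 1.74 on one probe and 4.84 on the other, and these near-identical family members can share signal. Recql4, a DNA helicase, was higher on all 4 probes, by 1.32 to 2.83. Esrrg, an orphan nuclear receptor, was higher by 2.20 and 2.22, and Tjp3, a tight junction scaffold, by 2.01 and 2.03, so their probes gave nearly the same value. Etnppl, which breaks down phosphoethanolamine, was higher by 1.64 and 2.66. Rcan2, a calcineurin regulator (2.11), Sec22c, of the vesicle traffic machinery (2.03), Nme5 (2.27), Tex9 (2.15), Flacc1 (2.57) and Fam241b (2.13) were also higher on each probe.

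**Figure D2:**
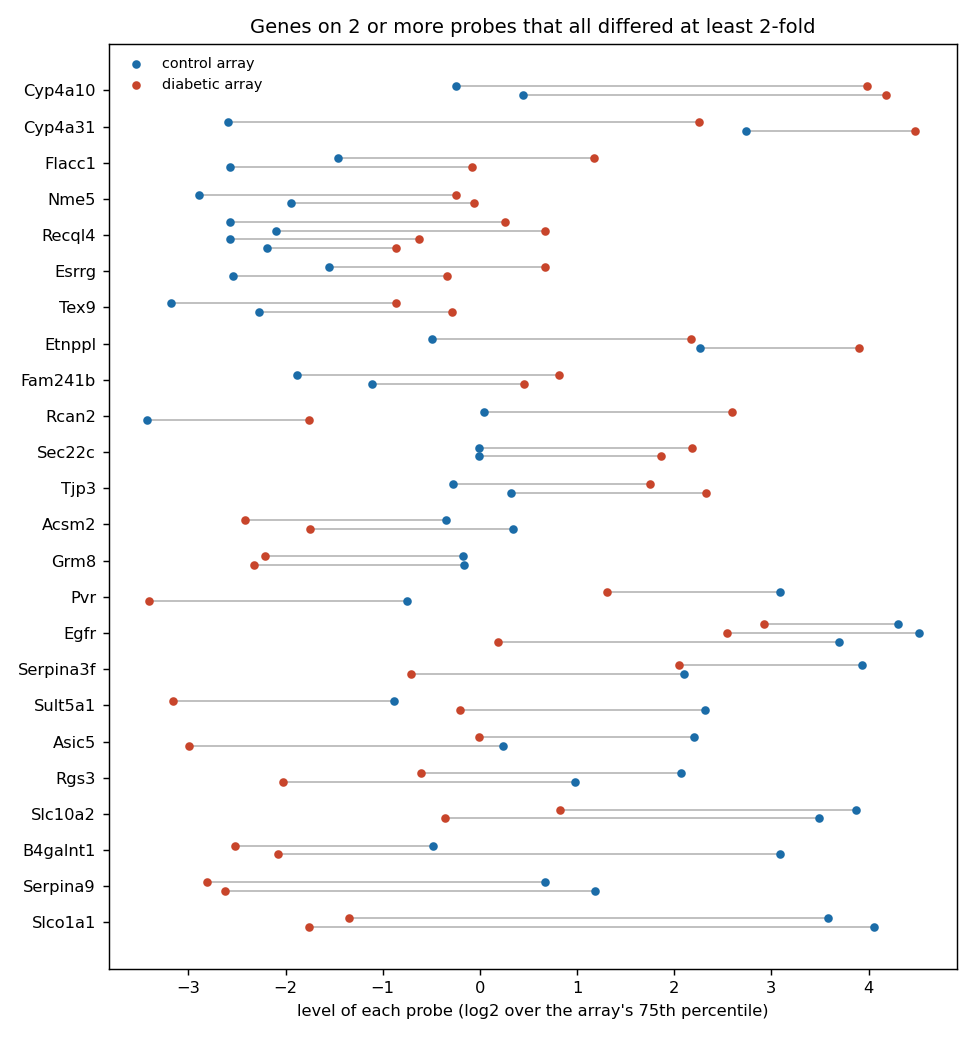
Each row is a gene measured by 2 to 4 probes, a blue point is a probe's log2 level on the control array, a red point the same probe's level on the diabetic array, and a line joins them. For Slco1a1 the blue points lie near 4 and the red points below -1, whereas for Cyp4a10 the red points lie near 4 and the blue points near 0.

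The gene lists fall into a small number with medians far from that of all genes and a larger number close to it. Female-biased liver genes, p53 targets, PPAR-alpha targets and interferon response genes had medians of 0.44 to 1.11. Exocrine pancreas, lymphocyte, erythroid, immediate early, matrix and male-biased genes had medians of -0.80 or lower. Across all settings tried these 10 lists kept their sign, and urea cycle, fatty acid oxidation, oxidative phosphorylation and proteasome genes did not.

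**Figure D3:**
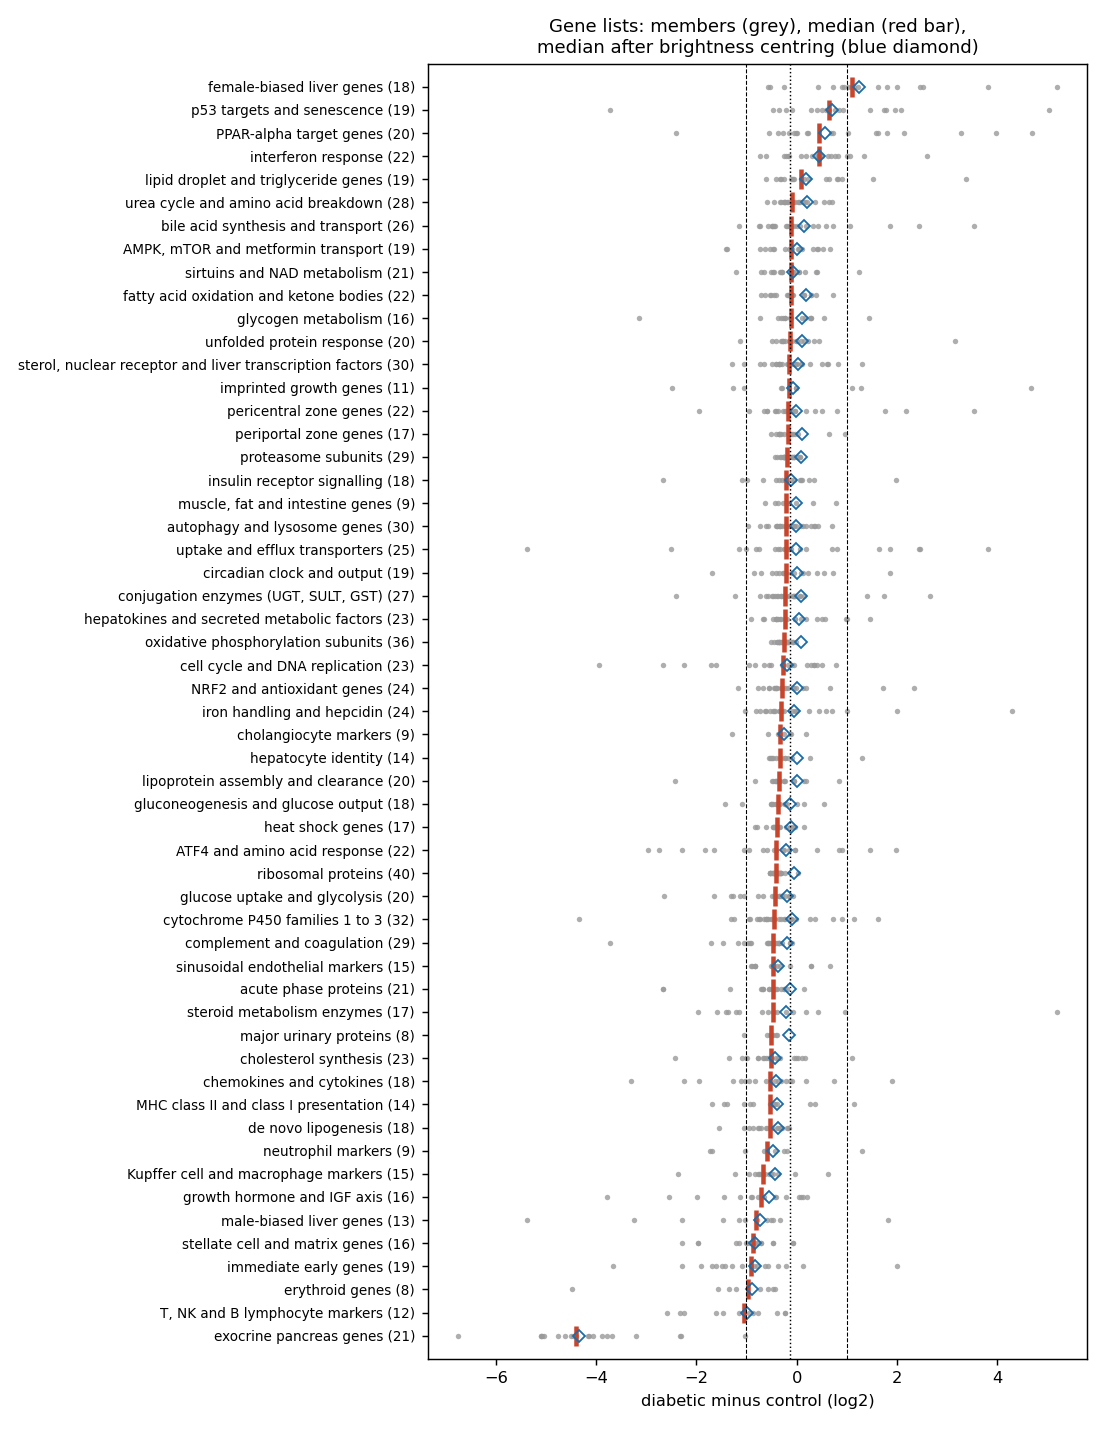
Each row is a gene list with its number of measured members in brackets; grey points are members, the red bar is their median difference in log2, the blue diamond the median after centring on genes of like brightness, the dotted line the median of all genes (-0.12) and the dashed lines 2-fold. Most medians lie within 0.5 of 0, and the exocrine pancreas list stands alone at -4.40.

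PPAR-alpha is the nuclear receptor that turns on fat burning genes when fatty acids reach the liver. Of 20 measured PPAR-alpha targets 8 were at least 2-fold higher and 1 lower, against 5.88% and 5.83% of all genes, with a median of 0.45 and a brightness-centred median of 0.57. After that centring 7 were higher and 1 lower. The leading members were Cyp4a14 (-1.42 in the control and 3.27 in the diabetic liver, 25.9-fold higher), Cyp4a10 and Cyp4a31, then Crat, which moves acetyl groups onto carnitine, at 0.99 and 3.14. The acyl-CoA thioesterases Acot3 (0.92 and 2.72), Acot5 (1.25 and 2.83) and Acot4 (-0.60 and 0.42) were higher. Probes of Acot3 gave unequal differences, 0.82 and 2.78. Cpt1b, the muscle form of the carnitine palmitoyltransferase, was also higher, at -2.67 and -1.06. Vnn1, which makes pantothenic acid, and the hormone Fgf21 had outlier spots on an array and were 2.15 and 1.71 higher with those spots kept.

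Other targets of the same receptor did not follow. Pdk4, the kinase that shuts pyruvate dehydrogenase in fasting, was lower, at 3.24 in the control and 0.83 in the diabetic liver (-2.41). Angptl4, a secreted lipase inhibitor, differed by -0.38, Fabp1 by -0.54 and Cpt1a by -0.13, and Ppara itself by -0.15. Among 22 measured genes of fatty acid oxidation and ketone bodies none was 2-fold apart, against 11.7% of all genes. They ranged from -0.71 (Acsl1, an acyl-CoA synthetase) to 0.72 (Ehhadh, a peroxisomal enzyme). Their median of -0.12 equals that of all genes, and it lay between -0.12 and 0.21 across settings.

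Lipid storage genes were led by Mogat1, which makes diacylglycerol from monoacylglycerol, at -1.45 in the control and 1.94 in the diabetic liver (3.39). Mogat2, which does the same, was not well above background on the control array and at least 4.65-fold higher in the diabetic liver, a bound that sets its bright level against the lowest level counted as above background, or against the dim probe itself where that read higher. G0s2, an inhibitor of triglyceride lipase, was at 1.09 and 2.61. Cd36, the fatty acid translocase, was 1.53 higher with its outlier spots kept. Below 2-fold were Pparg, the adipogenic nuclear receptor (0.82), the lipoprotein lipase gene Lpl (0.91), and the droplet coat genes Plin3 (0.81) and Plin5 (0.59), while Plin4 was at 0.08 and Cidec at 0.23. Over the list 2 of 19 measured members were at least 2-fold higher and 0 lower, close to the 5.88% and 5.83% of all genes.

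De novo lipogenesis, the making of fatty acids from sugar, was on the lower side in every one of its 18 measured genes. Of all genes 39.6% lay above 0. The list median was -0.53 and the brightness-centred median -0.38. Lpin1, a phosphatidate phosphatase and coactivator, was at 1.67 in the control and 0.11 in the diabetic liver. Srebf1, the transcription factor that drives this pathway under insulin, was at 4.26 and 3.22. These were the 2 members past 2-fold. Of all genes 5.83% were at least 2-fold lower. Fads2, a desaturase, differed by -0.96, Acss2 by -0.87, Acaca, the first enzyme of the pathway, by -0.76, and Thrsp by -0.70. Fasn, Scd1 and Me1 had outlier spots, and with those kept they differed by -0.63, -0.82 and -0.50. Mlxipl, which encodes the sugar sensor ChREBP, was near the median at -0.15.

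Of 23 measured cholesterol synthesis genes 4 were at least 2-fold lower and 1 higher, against 5.83% and 5.88% of all genes, and 3 and 1 after brightness centring. Of the 23, 17 lay below the median of all genes, with a median of -0.52 and a brightness-centred median of -0.44. Cyp51, the lanosterol demethylase (-1.08), and Sqle, the squalene epoxidase (-1.02), passed 2-fold narrowly and Sc5d (-0.98) did not. Mvd, the mevalonate diphosphate decarboxylase, went the other way at -0.51 and 0.59. The regulators themselves, Srebf2 at 0.00 and Scap at 0.10, were close to 0, as was Hmgcs1 at 0.04. The measured apolipoproteins lay between -0.50 (Apoc3) and -0.06 (Apob).

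Bile acid genes differed in both directions. Cyp7a1, the first enzyme of the classic bile acid pathway, was at -0.06 in the control and 3.48 in the diabetic liver, 11.6-fold higher on its 1 probe. Cyp39a1, an oxysterol hydroxylase, was higher (1.06), Cyp8b1, which makes cholic acid, less so (0.73), and Cyp7b1, of the alternative pathway and male-biased, was lower (-1.15). Of the efflux carriers on the blood side, Abcc4 was at -1.30 and 1.13 and Slc51b at -1.81 and 0.06. Slc51a, the partner subunit of Slc51b, was seen on the control array only and was at least 5.01-fold lower in the diabetic liver, so the pair differed in direction. The uptake carrier Slc10a1 (-0.44), the canalicular pump Abcb11 (-0.22), the bile acid receptor Nr1h4 (-0.19) and its target Nr0b2 (-0.06) were within 0.5 of 0. In all, 4 of 26 measured members were at least 2-fold higher and 1 lower, against 5.88% and 5.83% of all genes. The list median was -0.11. After brightness centring 4 were higher and 0 lower with a median of 0.14, and the authors' table gave a median of 0.17, so the list has no settled direction.

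In the gluconeogenesis list 2 of 18 genes were at least 2-fold lower and 0 higher, against 5.83% and 5.88% of all genes, with a median of -0.37 and a brightness-centred median of -0.12. The enzymes were bright and close to the class of bright genes: G6pc stood at 5.11 and 4.61, Pck1 at 5.38 and 5.02, Fbp1 at 5.47 and 5.14. The glucagon receptor Gcgr differed by -0.38 and the coactivator Ppargc1a by -0.48. The 2 lower genes were the orphan receptor Nr4a1 (-1.43) and the forkhead factor Foxo3 (-1.09), while Foxo1 differed by -0.23. Probes of Foxo3 gave unequal differences, -1.55 and -0.63.

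All 20 measured genes of glucose uptake and glycolysis were on the lower side, while 39.6% of all genes lay above 0. At least 2-fold lower were 6 of the 20, against 5.83% of all genes. The median was -0.43 and the brightness-centred median -0.19. Pfkfb3, which makes the activator of phosphofructokinase, was at 3.38 in the control and 0.72 in the diabetic liver. Its liver isoform Pfkfb1 was at 0.78 and -0.49, and the liver pyruvate kinase Pklr at 1.72 and 0.41. Hexokinase Hk2 (-1.65), the pyruvate kinase Pkm (-1.06) and Txnip, a glucose-induced inhibitor of glucose uptake (-1.13), also passed 2-fold. Probes of Pkm gave unequal differences, -1.62 and -0.495. The other trunk enzymes from Gpi1 to Ldha, pyruvate kinases aside, lay between -0.50 and -0.24.

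Among glycogen genes the opposite ends were both targeting subunits of protein phosphatase 1, which bring the phosphatase to glycogen. Ppp1r3g was at 3.24 and 0.10 (-3.14) and Ppp1r3c at -1.16 and 0.29 (1.45). The other 14 measured genes, among them the phosphorylase Pygl (-0.32) and the branching enzyme Gbe1 (-0.37), were under 2-fold.

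In insulin receptor signalling 2 of 18 genes were at least 2-fold lower and 1 higher, close to the 5.83% and 5.88% of all genes. Irs2, the receptor substrate that feeding lowers, was at 3.18 and 2.08, and Socs3, a feedback inhibitor of cytokine and insulin signalling, at 3.35 and 0.68 (-2.67). Trib3, a pseudokinase that binds Akt, was at 0.24 and 2.22 (1.98). The receptor Insr (-0.30), Irs1 (0.36), Akt1 (-0.04) and Akt2 (-0.40) were closer to 0. Of the AMPK and mTOR genes Prkaa2, a catalytic AMPK subunit, differed by -1.40 and the mTORC2 subunit Rictor by -1.38, against -0.11 for Prkaa1, 0.67 for Mtor and 0.02 for Rptor.

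Sex-biased liver genes separated by the sex in which they are usually more active. Of 18 measured female-biased genes 11 were at least 2-fold higher in the diabetic liver and 0 lower, with a median of 1.11 that ranged from 1.04 to 1.36 over the settings. Of 13 measured male-biased genes 6 were at least 2-fold lower and 1 higher, with a median of -0.80 that ranged from -1.02 to -0.55. After brightness centring 4 male-biased genes stayed at least 2-fold lower, since Nudt7 (-0.78) and Cyp7b1 (-0.91) lost the call. The background is 5.88% higher and 5.83% lower.

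Cyp17a1, a steroid 17-hydroxylase and lyase, led the female-biased list at -2.38 in the control and 2.83 in the diabetic liver. Slc22a27 (-2.92 and 0.90) and Slc22a26 (-2.39 and 0.08), of the organic anion carrier family, Cux2, a homeobox repressor of male-biased genes (-2.86 and -0.34), and Hamp2 (-1.27 and 0.73) followed. All of these were dim in the control liver. The P450 genes Cyp2b13 (1.63) and Cyp2b10 (1.14), the flavin monooxygenase Fmo2 (1.22) and the peroxisomal transporter Abcd2 (1.08) were also past 2-fold, with Cyp2b9 at 0.73. A1bg was seen on the diabetic array only, at least 2.55-fold higher. Sult1e1, the estrogen sulfotransferase, had outlier spots and was 3.90 higher with them kept. Cyp2c69 (-0.58) and Hao2 (-0.52) did not follow, and Cyp3a41a differed by -0.25.

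On the male-biased side Hsd3b5, a steroid dehydrogenase of male mouse liver, was at 3.75 in the control and not well above background in the diabetic liver, at least 184-fold lower. Elovl3, a fatty acid elongase, was at 2.44 and -0.81, the complement gene C6 at 3.59 and 2.13, and the nudix hydrolase Nudt7 at 4.93 and 3.91. Cyp4a12a differed by -0.80 and the serpin Serpina1e by -0.48. Susd4 was the exception at 0.50 and 2.33. The major urinary proteins, pheromone carriers that male liver secretes, were on the lower side in all 8 measured genes. Of all genes 39.6% lay above 0. The list median was -0.51 with a brightness-centred median of -0.15, and only Mup21 (-1.04) passed 2-fold. The major urinary protein genes are near-identical and bright, and single members cannot be told apart.

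The growth hormone axis showed its widest differences in feedback genes. Cish, which STAT5 induces, was at 2.68 in the control and -1.09 in the diabetic liver (-3.78), Socs2, another STAT5 target, at 3.35 and 0.80 (-2.55), and Socs1 at -1.43 and -3.41 (-1.98). Igfals, the carrier subunit that keeps IGF1 in plasma, was at 2.17 and 0.72, and Igfbp3 at 2.03 and 0.89. The receptor Ghr differed by -0.77, Jak2 by -0.89, Igfbp1 by -0.91, Igf1 by -0.41, Stat5b by -0.21 and Stat5a by -0.44. The repressor Bcl6 was at 0.12 and the prolactin receptor Prlr at 0.21. Thus 5 of 16 measured genes were at least 2-fold lower and 0 higher, against 5.83% and 5.88% of all genes. The median was -0.71, with a brightness-centred median of -0.54.

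Of 17 measured steroid enzymes 6 were at least 2-fold lower and 1, Cyp17a1, higher, against 5.83% and 5.88% of all genes. After brightness centring 5 were lower and 2 higher. The 3-beta-hydroxysteroid dehydrogenases Hsd3b6 (-1.98), Hsd3b3 (-1.59), Hsd3b2 (-1.42) and Hsd3b1 (-1.37) are neighbours on chromosome 3 and near-identical, so their signals may overlap. Cyp21a1 was at 0.20 and -1.01, and Srd5a1, a 5-alpha-reductase, at 4.05 and 3.35.

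**Figure D4:**
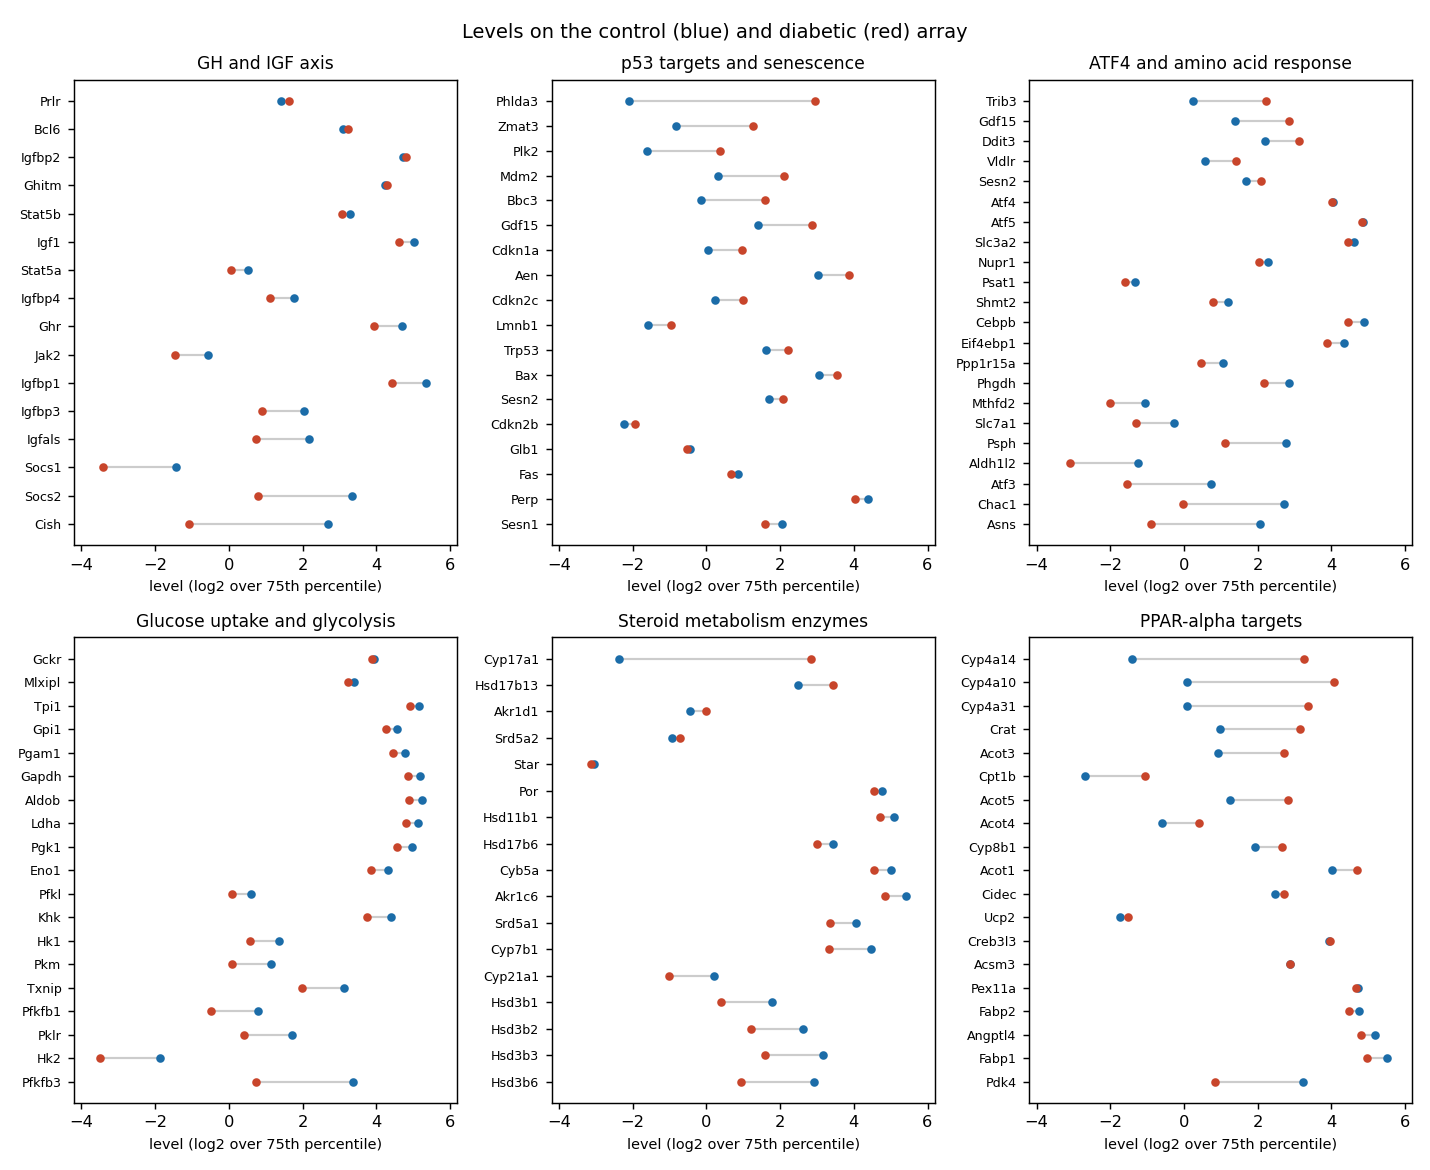
Each panel is a gene list and each row a measured member; a few members are not drawn, blue points are log2 levels on the control array and red points those on the diabetic array. Red lies far to the left for Cish and Socs2, for Asns and Chac1 and for Pfkfb3, and far to the right for Phlda3, Cyp17a1 and the Cyp4a genes, while the bright enzymes of glycolysis sit close together.

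Of 32 measured P450 genes of families 1 to 3, 2 were at least 2-fold higher (Cyp2b13 and Cyp2b10) and 3 lower, close to the 5.88% and 5.83% of all genes, with a brightness-centred median of -0.09. Cyp2d22 stood far from the rest at 2.40 and -1.94, followed by Cyp2r1, a vitamin D 25-hydroxylase (-1.30), and Cyp2j5 (-1.25). Of 27 measured conjugating enzymes 3 were at least 2-fold higher and 2 lower, with a median of -0.23 and a brightness-centred median of 0.085. The higher ones were Gsta2, a glutathione transferase, at 1.17 and 3.84, Ugt1a6a at -0.58 and 1.16, and Gstt3 at 2.39 and 3.79. Sult5a1 (-2.40) was among the lower ones. The shares of all genes were 5.88% and 5.83%. Sult2a2, Sult2a3 and Sult2a5 were seen on the diabetic array only, at least 16.9-fold, 4.46-fold and 4.02-fold higher, and these hydroxysteroid sulfotransferases are near-identical. The organic anion carriers Slc22a7 (4.27 and 1.75) and Slco1a4 (0.95 and 2.60) and the phosphate carrier relative Slc17a1 (-0.95 and 0.92) also differed past 2-fold, in both directions.

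Among 24 measured oxidative stress genes 2 passed 2-fold on the higher side and 1 on the lower, close to the 5.88% and 5.83% of all genes. Nfe2l2, which encodes NRF2, the activator of antioxidant genes, was at 0.04 and 2.38, and Nqo1, a quinone reductase it controls, at -0.96 and 0.77. Other NRF2 targets did not share this: Gclc was at -0.55, Gclm at -0.28, Hmox1 at -0.55, Srxn1 at -0.78 and Txnrd1 at 0.19. Sod3, the extracellular superoxide dismutase, was lower at 2.21 and 1.04.

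p53 targets were on the higher side in 14 of 19 measured genes, against 39.6% of all genes, and 6 were at least 2-fold higher, against 5.88%. p53 is the transcription factor that halts the cell cycle or triggers cell death after DNA damage. Phlda3, an inhibitor of Akt, was at -2.10 in the control and 2.94 in the diabetic liver, 32.9-fold higher. Mdm2, the ligase that degrades p53, was at 0.31 and 2.10, Zmat3 at -0.83 and 1.26, Plk2 at -1.61 and 0.36, and the death factor Bbc3 at -0.15 and 1.59. Probes of Mdm2 gave unequal differences, 0.59 and 2.98. The cell cycle inhibitor Cdkn1a was just under 2-fold at 0.04 and 0.96, Aen was higher on 3 probes by 0.73 to 1.09, Bax by 0.51 and Trp53 by 0.59. Ccng1 had outlier spots and was 2.00 higher with them kept. Eda2r and Gtse1 were seen on the diabetic array only, at least 2.11-fold and at least 2.83-fold higher.

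Members of the same list on the other side of 0 included Sesn1 (-0.46), a stress-induced inhibitor of mTORC1, Perp (-0.35) and the death receptor Fas (-0.21). Of the 19, 1 was at least 2-fold lower, against 5.83% of all genes. Btg2, with outlier spots kept, differed by -1.77. The list median was 0.64 and stayed between 0.64 and 0.89 over the settings. Cdkn2a, a marker of senescence, was not well above background on either array. Of 23 measured cell cycle genes 5 were at least 2-fold lower and 0 higher, against 5.83% and 5.88% of all genes. The lower ones were led by the replication helicase subunit Mcm6 (1.26 and -2.68), Mki67 (0.79 and -1.87) and Mcm5 (-0.97 and -3.21). Other helicase subunits differed, with Mcm2 at 0.80 and Mcm7 at -0.27, so the complex did not move as 1 unit.

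The amino acid response under the transcription factor ATF4 was split. Asns, asparagine synthetase, was at 2.07 in the control and -0.91 in the diabetic liver, Chac1, which degrades glutathione, at 2.70 and -0.04, and Atf3 at 0.73 and -1.56. The serine pathway gene Psph (2.77 and 1.12) and the folate enzyme Aldh1l2 (-1.25 and -3.09) were also lower. In the other direction stood Trib3 (1.98), the stress hormone Gdf15 (1.40 and 2.86) and Ddit3 (0.92), while Atf4 itself was at -0.04. Of 22 measured genes 6 were at least 2-fold lower and 2 higher, against 5.83% and 5.88% of all genes. The median was -0.41 and the brightness-centred median -0.21. After that centring 5 were lower and 3 higher. The unfolded protein response had 1 gene 2-fold apart each way among 20, close to the 5.88% and 5.83% of all genes. Derl3, of the endoplasmic reticulum degradation machinery, was at -0.42 and 2.75, and Ern1, the stress sensor, at 0.21 and -0.92. Hspa5, the main chaperone of that compartment, differed by -0.27.

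Hepcidin was the widest difference of iron handling. Hamp encodes hepcidin, the liver hormone that degrades the iron exporter and so lowers iron uptake. It was at -1.72 in the control and 2.58 in the diabetic liver, 19.6-fold higher, and its paralogue Hamp2, which is female-biased, at -1.27 and 0.73. Hamp is known to be turned on by BMP signalling, for which Hjv is the co-receptor, and by STAT3 after interleukin 6. Hjv was at 0.20 in the control liver and just under 2-fold higher in the diabetic liver, and the BMP target genes Id1 and Smad6 differed by 0.70 and 0.59, whereas Smad7 differed by -0.30 and the ligand Bmp6 by -0.03. The iron importer Slc39a14 was lower (-1.02), the transferrin receptors Tfrc and Tfr2 were at -0.81 and -0.63, and the exporter Slc40a1 at -0.01. Erfe, the erythroid inhibitor of hepcidin, was at -0.72.

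Promoters are shown for Hamp, for Socs3, which shares these letters and differed the other way, and for Ifit1, of the interferon genes. They are the 200 bases before the RefSeq start of each gene on GRCm38.p6, given in the direction of the gene: Hamp at chr7:30944030-30944229 on the minus strand, Socs3 at chr11:117969367-117969566 on the minus strand, and Ifit1 at chr19:34640689-34640888 on the plus strand. Capitals mark matches to 3 motifs, each searched in all 3 promoters on both strands: the BMP response element GGCGCC, the STAT site TTCNNNGAA and the interferon-stimulated response element GAAANNGAAA. Hamp and Socs3 each held the BMP letters and the STAT letters, and Ifit1 held the interferon letters, on the other strand.
Hamp: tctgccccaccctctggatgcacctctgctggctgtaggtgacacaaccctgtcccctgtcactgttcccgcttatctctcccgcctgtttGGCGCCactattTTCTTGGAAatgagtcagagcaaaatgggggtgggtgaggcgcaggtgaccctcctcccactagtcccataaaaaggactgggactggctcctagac
Socs3: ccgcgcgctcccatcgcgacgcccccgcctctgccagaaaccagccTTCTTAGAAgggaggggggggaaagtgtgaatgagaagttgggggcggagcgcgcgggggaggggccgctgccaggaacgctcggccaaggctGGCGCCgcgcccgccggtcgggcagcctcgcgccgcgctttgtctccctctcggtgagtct
Ifit1: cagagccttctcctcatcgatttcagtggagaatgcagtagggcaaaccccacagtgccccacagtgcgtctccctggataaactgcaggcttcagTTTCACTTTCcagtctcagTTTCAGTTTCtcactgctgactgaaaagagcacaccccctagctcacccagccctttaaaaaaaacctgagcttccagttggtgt
In Hamp the BMP element begins 109 bases before the start and the STAT site 97 bases before it. In Socs3 the STAT site begins 154 bases before the start and the BMP letters 61 bases before it, and the 2 interferon elements of Ifit1 begin 104 and 85 bases before it. In the same window of 32851 promoters, 8.43% held GGCGCC, 5.49% TTCNNNGAA and 2.27% GAAANNGAAA, so the first letters are common. A match describes letters and not a bound factor. Hamp (4.29) and Socs3 (-2.67), which both hold the STAT and BMP letters, differed in opposite directions.

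Acute phase proteins, which interleukin 6 raises, were close to the class of bright genes. Of 21 measured genes 3 were at least 2-fold lower and 0 higher, against 5.83% and 5.88% of all genes. The median was -0.47 and the brightness-centred median -0.14. The lower ones were Socs3, the interleukin 1 receptor Il1r1 (3.65 and 0.98) and the fibrinogen chain Fga (4.85 and 3.51). The other chains Fgb and Fgg differed by -0.50 and -0.54. Probes of Fga gave -1.88 and -0.79, and its difference lay between -1.34 and -0.41 across settings. Serum amyloid Saa1 was at 5.35 and 4.92 and Saa2 at 5.09 and 4.78. All 29 measured complement and coagulation genes were on the lower side, while 39.6% of all genes lay above 0. At least 2-fold lower were 5 of the 29, against 5.83% of all genes, and the brightness-centred median was -0.19. Among the 5 were C6 (-1.46), factor VIII (F8, -1.70), C8b (-1.18) and Masp1 (-1.05).

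Of 22 measured interferon response genes 4 passed 2-fold on the higher side and 0 on the lower, against 5.88% and 5.83% of all genes, and 6 of the 22 lay below 0. Usp18, which removes ISG15 from proteins and damps the response, was at 0.01 in the control and 2.62 in the diabetic liver. Oasl1 was at -0.22 and 1.13, Xaf1 at 1.63 and 2.70, and Ifit1 at 1.38 and 2.39. Isg15 (0.64), Irf9 (0.77) and the sensor Ddx58 (0.82 over 3 probes, 0.50 to 1.32) were under 2-fold. Irf1 (-0.72), Ifit2 (-0.62) and Irf7 (-0.21) were on the other side of 0. The list median was 0.44 and lay between 0.38 and 0.70 in all settings.

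Markers of other liver cells were mostly on the lower side in the diabetic liver, while 39.6% of all genes lay above 0. In bulk RNA, fewer cells of a type and less RNA per cell cannot be told apart. All 12 measured lymphocyte markers were on the lower side, 6 at least 2-fold, against 5.83% of all genes, with a median of -1.05. Gzma was at -0.25 and -2.84, Jchain of plasma cells at 0.77 and -1.56, and Nkg7 at -0.22 and -2.46. The summed signal of the lymphocyte markers was 3.15 in the control and 2.12 in the diabetic liver in log2. The B cell markers Cd79a and Ms4a1 were not well above background on either array.

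Of 15 measured Kupffer cell and macrophage markers 14 were on the lower side and 2 past 2-fold, against 5.83% of all genes. The median was -0.67, the brightness-centred median -0.43, and the summed signals 7.37 and 6.82. Folr2 (3.02 and 0.66) and the monocyte receptor Ccr2 (-0.68 and -1.92) were the 2 past 2-fold. Clec4f, which defines Kupffer cells, was at 4.50 and 3.95 and Csf1r at 3.43 and 3.40. Neutrophil markers had 3 of 9 at least 2-fold lower and 1 higher, against 5.83% and 5.88% of all genes. After brightness centring 2 were lower and 1 higher. S100a9 (3.21 and 1.49) led the lower ones and Elane was the higher one (-3.40 and -2.09). The summed signals of the neutrophil list were 6.15 and 5.74. Class II antigen presentation genes H2-Aa (-1.69), H2-Eb1 (-1.39), H2-DMa (-1.05) and H2-DMb1 (-1.44) were lower, and Tap1, of class I loading, was higher (1.15).

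All 16 measured stellate cell and matrix genes were on the lower side, while 39.6% of all genes lay above 0. At least 2-fold lower were 6 of the 16, against 5.83% of all genes, and 5 after brightness centring. The median was -0.87, the brightness-centred median -0.82, and the summed signals 6.21 and 5.21. Pdgfrb, a receptor of stellate cells, was at 0.65 and -1.63, the collagen Col3a1 at 2.83 and 0.86, Reln at 1.93 and -0.04, and vimentin (Vim) at 3.52 and 2.30. Col1a2 (-0.99) and Col1a1 (-0.81) were under 2-fold, and Acta2, the mark of activated stellate cells, was at -0.07. Of 15 sinusoidal endothelial markers none was 2-fold apart, against 11.7% of all genes. Their median was -0.47, with summed signals of 6.13 and 5.70. Erythroid genes had 4 of 8 at least 2-fold lower, against 5.83% of all genes, with summed signals of 6.73 and 6.09. Among the 4 were the anion exchanger Slc4a1 (1.49 and -2.99) and the heme synthesis enzyme Alas2 (3.19 and 1.85). The part of these cell type markers in the cytokine, antigen presentation and cell cycle differences was not tested.

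Chemokine and cytokine genes had 6 of 18 measured members at least 2-fold lower and 1 higher, against 5.83% and 5.88% of all genes. Cxcl1, which draws neutrophils, was at 4.41 in the control and 1.11 in the diabetic liver. The monocyte chemokine Ccl2 (0.17 and -1.77), Il1a (-1.46 and -3.71), Il1b (0.05 and -1.21), Cxcl13 (-1.11) and Ccl5 (-1.03) were lower as well. Ccl3 was higher, at -3.07 and -1.17. Tnf, Il6 and Il10 were not well above background on either array.

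Exocrine pancreas genes had the median furthest from 0 of the 56 lists. All 21 measured members were at least 2-fold lower in the diabetic liver, against 5.83% of all genes, with a median of -4.40. They ranged from -6.76 (the amylase gene Amy2b, 3.33 and -3.44) to -1.02 (Cela1, 4.52 and 3.50). The carboxypeptidases Cpa1 (3.82 and -1.27) and Cpb1 (2.96 and -2.08), the lipase Cel (2.90 and -2.20), and the trypsinogens Prss2 (4.81 and 0.66) and Try5 (4.45 and 0.66) were all bright on the control array. The ribonuclease Rnase1 and the lipase relative Pnliprp2 were seen on the control array only, at least 31.2-fold and at least 9.97-fold lower. Summed over the list, the signal was 8.04 in the control and 4.79 in the diabetic liver, and the part of pancreas RNA in other differences was not tested. Intestine, fat and muscle genes showed no such pattern, with 0 of 9 measured members 2-fold apart, against 11.7% of all genes.

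Some differences lay in runs of neighbouring genes. Along the chromosomes of the RefSeq GRCm38.p6 gene table there were 15 runs of 3 or more adjacent measured genes that were all at least 2-fold lower and 10 runs that were all at least 2-fold higher. The longest held 7 kallikrein genes of chromosome 7, from Klk1b8 to Klk1, with differences from -2.08 to -3.15. Kallikreins are serine proteases of glands, and their sequences are alike. Other lower runs were the trypsinogens Try4, Try5, Prss3 and Prss2, the Reg genes Reg3d, Reg2 and Reg1, the Hsd3b genes, Serpina9 with Serpina4-ps1 and Serpina5, the cytokine receptor genes Osmr (-1.72) and Lifr (-1.37) next to Rictor, and the paired receptors Pilra, Pilrb1 and Pilrb2. Higher runs included the Cyp4a genes, the thioesterases Acot4, Acot3 and Acot5, Gsta2 with Gm10639 and Dppa5a, the serpins Serpinb1a, Serpinb1c and Serpinb6b, and Ly6d with Lynx1 and Ly6k. In most of the runs named here the neighbours are relatives, and probes of relatives can read each other's RNA. Runs not named so far included neighbours without related names, such as Gna14, Vps13a and Prune2 on the lower side and Particl, Capg and Elmod3 on the higher. A share over all sets of adjacent measured genes was not computed.

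Immediate early genes answer within minutes to growth factors or handling. Of 19 measured members 9 were at least 2-fold lower and 1 higher, against 5.83% and 5.88% of all genes, with a median of -0.91 that ranged from -1.08 to -0.66. Egr1 was at 1.92 in the control and -1.75 in the diabetic liver, Fos at -0.26 and -1.87, Myc at 0.20 and -1.28, and Maff at 2.27 and 0.37. Egr2 was seen on the control array only, at least 7.69-fold lower. Jun (-0.79), Junb (-0.57), Dusp1 (-0.86) and Zfp36 (-0.91) were under 2-fold. Ccn1 was the exception, at -3.10 and -1.09, and Egr3, seen on the diabetic array only, was at least 3.11-fold higher.

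The circadian clock differed at few points. Arntl, which encodes the activator BMAL1, was at -2.52 in the control and -0.66 in the diabetic liver, and Nfil3, a repressor of clock output, at 3.10 and 1.41. The other 17 measured clock genes were under 2-fold, against 11.7% of all genes 2-fold apart, with Dbp at -0.22, Nr1d1 at 0.08, Per2 at -0.27, Per1 at -0.50 and Clock at 0.73. In NAD metabolism Nampt, which recycles nicotinamide, was at 4.04 and 2.83, Nmnat3 at 0.16 and 1.41, and Sirt1 at -0.65.

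Zonation genes were mostly under 2-fold apart, but so were most genes, of which 11.7% were 2-fold apart. The liver lobule is divided into a periportal zone, which makes glucose and urea, and a pericentral zone under Wnt signalling, which makes glutamine and holds many P450 enzymes. None of 17 measured periportal genes was 2-fold apart, but Hsd17b13 passed it after brightness centring (0.96 before, 1.07 after), and its probes disagreed, at -0.57 and 2.48. Cyp2f2 was at -0.51, Ass1 at 0.03 and Hal at -0.07. Among 22 pericentral genes the structural markers Glul (-0.27), Cyp2e1 (-0.44) and Lgr5 (-0.03) were under 2-fold, and Cyp1a2 was just under it at 4.28 and 3.34. The higher ones were Cyp7a1, Rnf43 (-1.34 and 0.85) and Tbx3 (-0.06 and 1.70), and Axin2, seen on the diabetic array only, was at least 2.52-fold higher. Znrf3, which acts with Rnf43 on Wnt receptors, went the other way at -1.69 and -3.64. Its diabetic level was close to the lowest that counted as above background on that array, -3.78. Across settings the difference of Znrf3 lay between -1.95 and -0.785. The endothelial Wnt genes Wnt2 and Rspo3 differed by 0.67 and 0.28.

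Among liver transcription factors Foxa3, a forkhead factor of hepatocytes, was at 4.34 in the control and 3.05 in the diabetic liver. The glucocorticoid receptor Nr3c1 (-0.35), Hnf4a (0.27), Foxa2 (0.63), Rxra (0.00) and Nr1h3 (-0.33) were under 2-fold. Probes of Hnf4a disagreed, at -0.50 and 1.04. Among imprinted genes the transcript H19 was at -3.30 and 1.37, 25.5-fold higher, and its neighbour Igf2 was seen on the diabetic array only, at least 3.52-fold higher. The control level of H19 was close to the lowest that counted as above background on that array, -3.49, and its difference lay between 3.87 and 4.92 across settings. Peg3 (-1.21 and 0.07) and Cdkn1c (0.14 and 1.23) were higher, and Meg3 (-0.37 and -2.86), Rian (-1.05) and Ndn (-1.26) lower. That made 3 genes each way out of 11 measured, against 5.88% higher and 5.83% lower of all genes. After brightness centring 3 were higher and 2 lower.

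None of 36 oxidative phosphorylation genes, 40 ribosomal protein genes, 29 proteasome genes, 30 autophagy genes, 17 heat shock genes or 28 genes of the urea cycle and amino acid breakdown was 2-fold apart, against 11.7% of all genes. The oxidative phosphorylation, ribosomal protein and proteasome lists are bright, and in the brightest bin, of 1348 genes, only 11 were past 2-fold. Oxidative phosphorylation genes lay between -0.51 (Cox6c) and -0.02 (Ndufb3), and their brightness-centred median was 0.08. Ribosomal protein genes had a median of -0.41 and a brightness-centred median of -0.06. The urea cycle gene Ass1 was at 4.65 and 4.67, and Got1 (0.55) and Bcat2 (0.72) were the members of that list furthest up beside Sdsl (0.65). Probes of Bcat2 disagreed, at -0.075 and 1.51.

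Other single genes stood at the ends of the distribution on 1 probe each. Cdhr2, a cadherin of brush borders, was at -2.43 and 1.79, Tmem139 at -3.08 and 0.57, and the renin gene Ren2 at -1.37 and 2.21. The pseudogene Serpina4-ps1 was at 4.37 and -1.70, 67.0-fold lower, and its relatives can share its signal. Genes seen on 1 array only have a bound and no fold. There were 1054 such genes on the diabetic array, 263 with a bound of at least 2-fold, and 525 on the control array, 245 with such a bound. The largest on the diabetic array were Myom3, of the muscle M-band (at least 64.5-fold higher), Wdr86 (33.0-fold), the trehalase gene Treh (21.6-fold) and Defb26 (17.4-fold). On the control array they were Tob2, an antiproliferative factor (at least 186-fold lower), Hsd3b5, Rnase1 and the macrophage lectin Cd209f (12.2-fold).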

How the data were processed

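Whole-liver RNA of a control and a diabetic male mouse group was measured on 1 array each, out of 4 arrays that share 1 slide and 1 scan. The scanner files hold spot intensities as deposited, which Feature Extraction 11.5.1.1, per the file headers, had corrected for background; per the submitters' processing notes the version was Agilent Feature Extraction 10.7. The authors' value table holds log2 values, normalized in GeneSpring per the labels' protocols by a method not given in the sources used here; it correlated with the log2 signals at 0.999 to 1.00, with slopes of 0.986 to 1.01, which fixes its scale and direction, and all its columns had a median of 7.85. Its centring is therefore known and its method unknown.

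Spots marked as outliers were left out (3.31% of 59305 on the control and 4.66% on the diabetic array), and no spot was saturated. These flags fall on bright spots, so the 75th percentile was taken over the 53405 probes unflagged on both arrays. A probe counted as measured where at least 50% of its spots were well above background on both arrays, and the probes of a gene were averaged. Names came from RefSeq gene accessions of GRCm38.p6, a newer build than the arrays' mm9 grid: 33767 of 56605 probes (59.7%) had a name, giving 23462 symbols.

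The members and the 56 gene lists, with 1212 different genes, were chosen with earlier results of these data known, so no list supports its own direction. Of these genes 997 were measured, 33 had a bound, 118 outlier spots, 41 no signal well above background on either array, 22 no named probe and 1 another status. Named genes were the 12 highest and 12 lowest with all of 2 or more probes 2-fold apart, the 10 highest and 10 lowest among brighter genes, the 4 largest bounds each way, up to 6 members each way past 2-fold per list, or the 2 furthest where none was, and key members marked in the lists; other genes named were chosen after their values were seen. Gene symbols of clone or model type were passed over in the first 3 groups.

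With 1 array per group there is no test, and called means past 2-fold. Alternatives were other scales, kept outlier spots, quantile normalization, the authors' table, other filters, the median of probes, spike-ins, normexp (limma 3.58.1 in R 4.3.3, offset 50) and centring by brightness in 20 bins, added after seeing the data. Normexp used the median spot signal. Python 3.11.15 with numpy 2.4.6, pandas 2.3.3 and matplotlib 3.10.9 did the rest, tested on simulated data. Promoters are RefSeq sequences of GRCm38.p6. A few genes that the naming rule takes are not reported here, though list counts include them.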

Additional observations from a re-analysis of the deposited data

How the results depend on the processing

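No paired analysis was possible because each group has 1 array and the replicate number 1 pairs nothing. The main counts were 793 genes at least 2-fold higher and 786 lower. They moved most without the filter on background, to 1772 higher and 1457 lower of 22589 genes, many of them dim, and on the spike-in scale, to 1298 higher and 483 lower. The spike-in probes differed by a median of -0.02 (-0.31 to 0.49 over 11 probes) before scaling, while the 75th percentiles differed by 0.24, and no setting can tell which of these is nearer to equal amounts of RNA. Against a median of -0.12 over all genes, that scale gave 0.13, each array's own percentile 0.01, the authors' table -0.0031 and quantile normalization -0.0098.

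Counts stayed within 1.5 times under the other settings: 1028 higher and 596 lower with each array's own percentile, 1004 and 610 with the median as zero, 893 and 793 with outlier spots kept, 822 and 693 in the authors' table, 794 and 663 after quantile normalization, 755 and 710 with probes above background on all 4 arrays, 799 and 784 by the median of probes, 553 and 568 after normexp, and 903 and 670 after brightness centring. Of 194 named genes past 2-fold, 160 (spike-in scale) to 194 (median of probes) stayed past 2-fold in the same direction among those with a value, 0 turned direction, and 177 had a value under quantile normalization and 169 with all 4 arrays. List medians changed sign in 0 to 21 of 56 lists, most on the spike-in scale. No depth can be given for an array: the lowest level that counted as above background was -3.49 on the control and -3.78 on the diabetic array.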
